A study of Drosophila melanogaster with 80 samples.

Results

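The 7 genes described here encode small secreted immune peptides that flies make under the control of the Toll pathway: Drs (Drosomycin), Mtk (Metchnikowin), BaraA1 (Baramicin A1) and the Bomanins BomS1, BomS2, BomS3 and BomBc1. They were chosen by name, as the rows of the gene table whose FlyBase identifiers map to these symbols, and make up 7 of its 17697 genes. All 7 passed the filter on low counts in larvae, in females and in males.

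The data are RNA sequencing libraries from whole Drosophila melanogaster of 20 groups with 4 biological replicates each, which makes 80 libraries. Fluctuating animals went through temperature cycles of 19 °C ± 8 °C, between 27 °C and 11 °C, and constant animals stayed at 19 °C. Treatment lasted 7 days in larvae, which were collected after 6 cycles, and 13 days in adult males and females, which were collected after 12 or 6 cycles. Adults of 12 cycles were a later collection than those of 6 cycles and carry other replicate numbers. Cycle number therefore cannot be told apart from adult age and replicate set, in constant as in fluctuating animals. Animals of both regimes were sampled when the cycle stood at its high point or at its low point, so for constant animals the point is a time of sampling at the same 19 °C. All adults were moved to fresh food vials every second day. The strain, the adult age at the start and the number of animals per library were not given in the sources used here, and nothing in the labels says that any animal was infected. The labels also do not say whether replicates came from separate cultures, so p-values measure the spread between these libraries.

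In Drosophila, fungi and Gram-positive bacteria are sensed by circulating recognition proteins, a protease cascade then activates the ligand Spätzle, and the Toll receptor releases the NF-κB factors Dif and Dorsal from their inhibitor Cactus. The fat body is the main tissue that responds and secretes the peptides into the hemolymph, and hemocytes, gut, trachea and reproductive tract also make some of them. A parallel route, the Imd pathway, drives peptides such as the Diptericins, Attacins and Cecropins, and Mtk is known to take input from both.

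Drs, whose product is an antifungal peptide, is FBgn0283461 at 3L:3369556-3369942 on the plus strand. The other 6 genes lie on chromosome arm 2R. Mtk, whose product is a proline-rich peptide active against fungi and bacteria, is FBgn0014865 at 2R:15408846-15409113, plus strand. It sits inside the gene Stacl on the same strand, and their exons do not overlap. BaraA1, whose precursor protein is cut into several peptides, is FBgn0053470 at 2R:13411739-13413085, plus strand. Its exons overlap those of CG30059 on the opposite strand, and it has a near-identical copy, BaraA2, with no row of its own in the table. No source used here states that strand was used in counting, so reads of BaraA1, CG30059 and BaraA2 cannot be told apart with certainty. The Bomanins, short peptides needed for Toll-mediated resistance, form a cluster. BomBc1, a bicipital Bomanin, is FBgn0034328 at 2R:18382704-18383235 on the minus strand. The short Bomanins follow on the plus strand, with BomS1 (FBgn0034329) at 2R:18383949-18384378, BomS2 (FBgn0025583) at 2R:18386602-18387030 and BomS3 (FBgn0040736) at 2R:18387895-18388734. Coordinates are those of the BDGP6.54 annotation.

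Library totals lay between 87108384 and 130662081 estimated counts. Levels below are estimated counts per 1000000 counts of the library (CPM), and fold changes are log2 differences after scaling by trimmed mean of M-values (TMM). A gene was called when its p-value from edgeR's quasi-likelihood test, adjusted by Benjamini-Hochberg over all genes tested in that contrast, was below 0.05. A few libraries stood apart in these 7 genes. The male constant high-point library of 6 cycles, replicate 1, had 5 of the 7 at 2 or more times the median of the other 3 libraries of its group, with a median ratio of 5.64. The female fluctuating high-point library of 12 cycles, replicate 6, had 6 of 7 (median ratio 3.81), and the larval fluctuating low-point library, replicate 2, had 4 of 7 (median ratio 8.92). One group stood apart in another way. The 4 constant males at the high point after 6 cycles held 42.2, 40.3, 32.5 and 15.7 CPM of the larval fat body gene Fbp1, and no other male library was above 2.78 CPM. The 4 constant females of that point and cycle number held 16.7, 19.1, 27.5 and 19.5 CPM, and no other female library was above 0.671 CPM. A further male library, constant low point at 6 cycles, replicate 2, held 4471 CPM of the yolk protein gene Yp1. The median was 9.39 CPM over all male and 6675 CPM over all female libraries, so this library was near the female level. It also held 607 CPM of the male accessory gland gene Acp36DE, against a median of 730 CPM in males and 0.556 CPM in females. The origin of its Yp1 transcript was not tested.

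**Figure D1:**
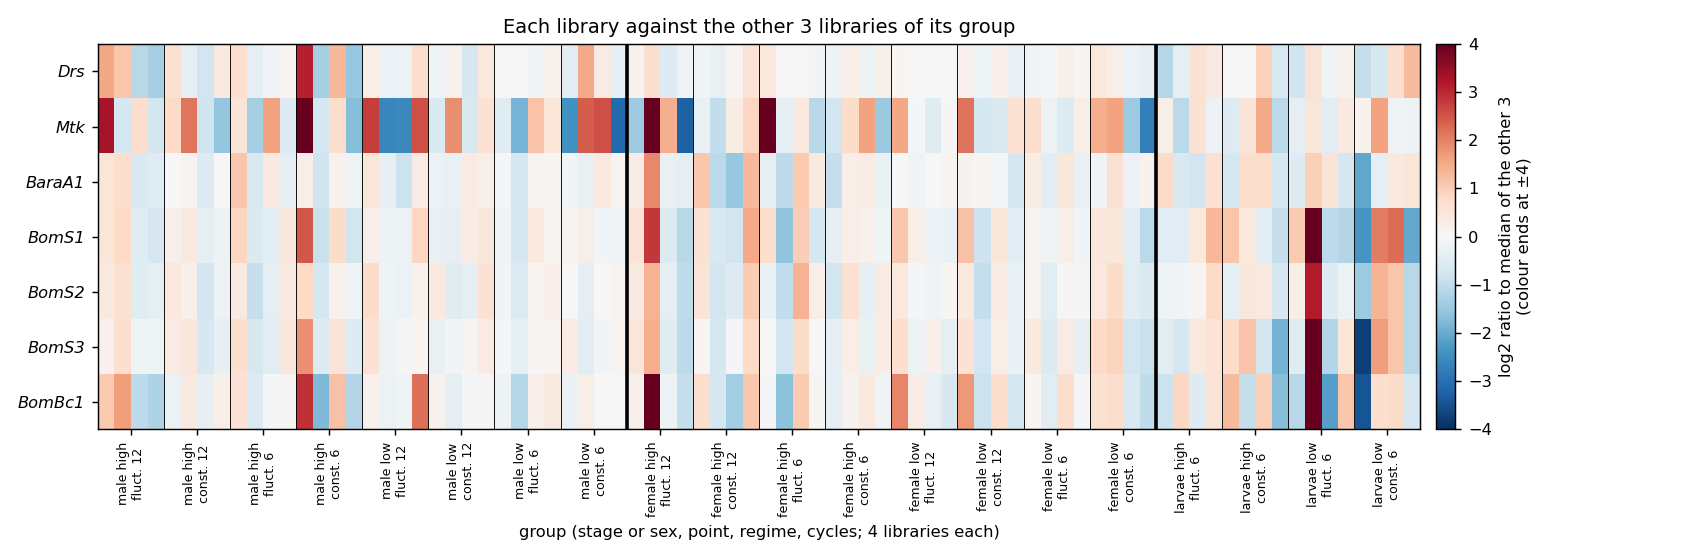
Heat map of the 7 genes (down) in all 80 libraries (across), with each cell showing the log2 ratio of a library's CPM to the median of the other 3 libraries of its group, on a scale that ends at -4 and 4. The male constant high-point library of 6 cycles replicate 1 reached 40.2 times the others in Mtk, and the larval fluctuating low-point library replicate 2 reached 76.1 times the others in its most elevated gene.

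Adult males carried more of these transcripts than adult females for every gene but Drs. Over 32 libraries of each sex, BomS3 had a median of 361 CPM in males (170 to 1210) and of 120 CPM in females (58.3 to 232). BaraA1 had a median of 260 CPM in males (116 to 530) and of 90.8 CPM in females (38.3 to 158). Drs went the other way, with a median of 100 CPM in males (43.5 to 559) and of 282 CPM in females (204 to 429). The male and female ranges of BomS3 and of BaraA1 overlapped at their ends, and the female range of Drs lay inside the male range. All 7 genes were called between the sexes, where 96.1% of all 16058 genes tested were. All 7 were also called without the male constant high-point library of 6 cycles, replicate 1, and without the male library rich in Yp1 transcript. The median gene was itself 0.90 higher in males on the log2 scale, and 1.11 higher with library totals as the only scaling. Relative to the median gene, Drs was 2.50 lower in males on the log2 scale, and the other 6 were 0.32 (BomS2) to 1.09 (Mtk) higher.

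Within females Drs varied least of the 7, by the ratio of highest to lowest library. Its highest female library held 429 CPM and its lowest 204 CPM, while Mtk ranged from 0.655 to 63.8 CPM over the same 32 libraries. Per length, on the transcripts per 1000000 (TPM) scale, which divides each count by the gene's exon bases, Drs was the highest of the 7 in females, with a median level of 1292 TPM. In males the highest median levels per length were 832 TPM for BomS2 and 769 TPM for BomS3, and Drs stood at 407 TPM. In larvae Drs was at 657 TPM, the next was Mtk at 22.1 TPM, and the 4 Bomanins lay between 0.934 and 3.12 TPM.

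Larvae held very little of the Bomanins. BomS2 had a median of 0.595 CPM in larvae (0.336 to 5.49), against 186 CPM in males and 74.6 CPM in females. Compared with adults of 6 cycles in the same regime and point, 5 of 7 genes were called lower in larvae, where 82.6% of 16306 genes were called in either direction. The log2 fold changes were -3.44 ± 0.18 (SE) for BaraA1, -4.59 ± 0.45 for BomBc1, -5.36 ± 0.32 for BomS3, -5.40 ± 0.35 for BomS1 and -6.51 ± 0.26 for BomS2. The median gene had a log2 fold change of 0.13, and of -0.24 with library totals as the only scaling. Drs (0.24, edgeR adjusted p = 0.182, 95% interval -0.09 to 0.56) and Mtk (0.02, edgeR adjusted p = 1.0, interval -0.80 to 0.84) were not called. Without the male constant high-point library of 6 cycles, replicate 1, Drs was called higher in larvae, at 0.38 ± 0.14 (edgeR adjusted p = 0.00965). Whole animals were sequenced, so fewer cells that make a transcript and less transcript per cell cannot be told apart here or in any result below. Summed over 7 fat body markers, libraries held 66016 to 91377 CPM in larvae, 2205 to 6729 in males and 1510 to 3662 in females. Fbp1 was at 0 in 3 of 32 male and 14 of 32 female libraries. The largest larval medians in the list were those of Fbp1 (49418 CPM), Lsp2 (21856 CPM) and Fbp2 (7214 CPM). Medians in larvae, males and females were 3006, 1857 and 1473 CPM for apolpp and 761, 153 and 59.8 CPM for fon. They were 104, 86.1 and 90.3 CPM for Mtp and 28.5, 262 and 154 CPM for Apoltp, which was lower in larvae. The part of tissue makeup in the difference between stages was not tested.

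Ordered by group median, the 20 groups gave the same broad sequence for BaraA1 and the 4 Bomanins, with all 8 male groups first, all 8 female groups next and the 4 larval groups last. Most neighbours in that order had overlapping ranges. Of 19 neighbouring pairs, the ranges lay apart in 3 for BaraA1, 2 for BomS2, 2 for BomS3, 1 for BomS1 and 0 for BomBc1. For Drs the highest group median was in constant larvae at the low point (317 CPM) and the lowest in fluctuating larvae at the high point (60.9 CPM), with females at 241 to 307 CPM and males at 63.3 to 152 CPM. For Mtk the group medians ran from 17.5 CPM in constant males at the high point after 12 cycles to 1.27 CPM in fluctuating females at the low point after 6 cycles. For Drs and Mtk every neighbouring pair overlapped.

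In males at the high point of the cycle, BaraA1 and the Bomanins were called lower in fluctuating than in constant animals after 6 cycles. After 12 cycles none was called, and BomS3 (0.22) and BomBc1 (0.49) were higher, so their means over cycles join values of opposite sign. Averaged over both cycle numbers, 4 of 7 genes were called and all 4 were lower, where 31.9% of 15847 genes were called. They were BaraA1 (log2 fold change -0.95 ± 0.17 SE, edgeR adjusted p = 8.57e-05), BomS2 (-0.83 ± 0.17, edgeR adjusted p = 4.53e-04), BomS1 (-1.03 ± 0.27, edgeR adjusted p = 0.00365) and BomBc1 (-1.05 ± 0.38, edgeR adjusted p = 0.0360). BomS3 stood at -0.45 (edgeR adjusted p = 0.0807), Drs at -0.43 (edgeR adjusted p = 0.381) and Mtk at -0.99 (edgeR adjusted p = 0.335).

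After 12 cycles no gene was called by edgeR or by DESeq2, where 17.5% of all genes were called by edgeR, and 1 of the 7 had an unadjusted p under 0.05. BaraA1 held 230, 271, 154 and 165 CPM in fluctuating males and 327, 346, 230 and 320 CPM in constant males, a log2 fold change of -0.60 (edgeR adjusted p = 0.0865). The ranges overlapped in that 1 constant library lay among the fluctuating ones. The other log2 fold changes were -0.17 for BomS1, -0.10 for BomS2, 0.07 for Mtk, 0.22 for BomS3, 0.49 for BomBc1 and 0.78 for Drs. The 95% intervals at 12 cycles ran from -0.57 to 0.37 for BomS2, from -0.90 to 0.56 for BomS1 and from -0.57 to 1.55 for BomBc1.

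After 6 cycles 6 of 7 genes were called lower, where 17.4% of all genes were called in either direction. BaraA1 held 287, 116, 176 and 137 CPM in fluctuating males, against 530, 288, 497 and 438 CPM in constant males. Each fluctuating library lay below each constant one, with the nearest at 287 CPM against 288 CPM. BomS2 held 113, 59.7, 89.0 and 115 CPM in fluctuating males, against 420, 168, 274 and 242 CPM in constant males, again without overlap. BomS1 held 93.2, 46.8, 51.5 and 70.4 CPM in fluctuating males, against 587, 92.5, 173 and 104 CPM in constant males, and 1 fluctuating library reached the lowest constant one. The same 4 constant libraries were those with 15.7 to 42.2 CPM of Fbp1, which the fluctuating males of this contrast held at 0.045 to 0.174 CPM. Fbp1 (-8.38) and the fat body gene Fbp2 (-4.56) were also lower in fluctuating males after 6 cycles, and neither was called after 12 cycles (2.50 and -0.21). Their part in the results for the 7 genes was not tested. The log2 fold changes were -1.31 ± 0.24 for BaraA1 (edgeR adjusted p = 4.42e-04), -1.56 ± 0.25 for BomS2 (edgeR adjusted p = 8.14e-05) and -1.88 ± 0.38 for BomS1 (edgeR adjusted p = 0.00112).

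In the other 3 genes called at 6 cycles, as in BomS1, 1 constant library stood above all the rest. BomBc1 held 25.9, 12.4, 17.3 and 18 CPM in fluctuating males, against 292, 25.4, 86.9 and 38.4 CPM in constant males (-2.60 ± 0.57, edgeR adjusted p = 0.00211). BomS3 held 359, 199, 231 and 313 CPM in fluctuating males, against 1210, 342, 489 and 342 CPM in constant males (-1.13 ± 0.28, edgeR adjusted p = 0.00589). Drs held 97.0, 50.3, 61.1 and 65.5 CPM in fluctuating males, against 559, 64.4, 161 and 56.0 CPM in constant males (-1.63 ± 0.51, edgeR adjusted p = 0.0257). The constant library of replicate 1 was the highest of its group for all 3, and the ranges of BomBc1, BomS3 and Drs overlapped between regimes. Mtk, at 98.1 CPM in that library and 2.44, 4.00 and 1.22 CPM in the other 3, was not called (-2.05, edgeR adjusted p = 0.206).

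Without that library 4 of 7 genes were called lower at 6 cycles. BaraA1 (-1.21), BomS2 (-1.29), BomS1 (-0.94) and BomBc1 (-1.47, edgeR adjusted p = 0.0330) were called, while BomS3 (-0.53, edgeR adjusted p = 0.0827) and Drs (-0.47, edgeR adjusted p = 0.474) were not. Drs was also not called without fluctuating replicate 2, 3 or 4. The mean over both cycle numbers then had 3 genes called lower, BaraA1 (-0.90), BomS2 (-0.70) and BomS1 (-0.55), and BomBc1 stood at -0.49 (edgeR adjusted p = 0.270). The BomBc1 call in that mean was lost in 7 of 32 omissions of a single library. A test of the difference between 12 and 6 cycles in this effect called none of the 7 with edgeR, where 9 genes in all were called (0.0568%), and 6 of the 7 had an unadjusted p under 0.05. The closest was BomS2, at -0.10 after 12 cycles and -1.56 after 6 cycles, a difference of 1.46 ± 0.34 (edgeR adjusted p = 0.211, DESeq2 adjusted p = 0.00510). With the compared libraries alone, BomBc1 in the mean over cycles had an edgeR adjusted p of 0.0622, at the same -1.05. In a fit of the 8 high-point libraries of 6 cycles alone, BaraA1, BomS2 and BomBc1 were called, and BomS1 (edgeR adjusted p = 0.0517), BomS3 (edgeR adjusted p = 0.0853) and Drs (edgeR adjusted p = 0.125) were not.

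**Figure D2:**
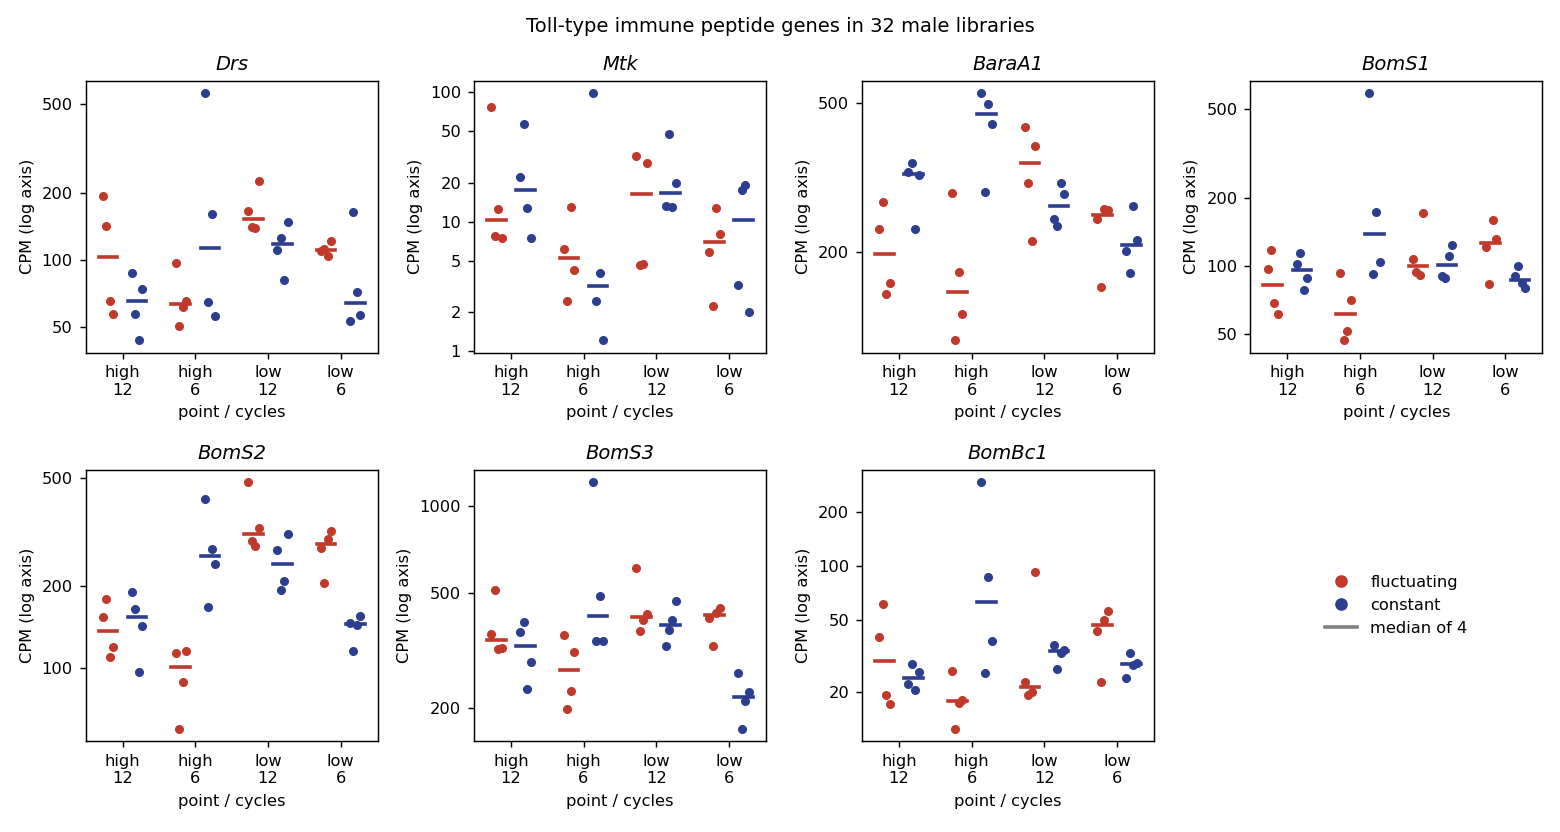
CPM of the 7 genes in the 32 male libraries on a log axis, 1 panel per gene, with the high point left of the low point, 12 cycles left of 6 within each and fluctuating left of constant; points are libraries and bars are medians of 4. At the high point after 6 cycles all 4 fluctuating libraries of BaraA1 and BomS2 lie below the 4 constant ones, and 1 constant library stands far above the rest in Mtk.

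At the low point the short Bomanins BomS2 and BomS3 were called in the direction opposite to that at the high point after 6 cycles. Averaged over both cycle numbers, these 2 of 7 genes were called higher in fluctuating males, a count close to the 30.5% of all genes called. BaraA1 (0.21), BomS1 (0.33), BomBc1 (0.42) and Drs (0.44) were also higher in that mean without a call, and Mtk (-0.49) was lower without one. BomS2 was 0.72 ± 0.17 higher (edgeR adjusted p = 0.00209) and BomS3 was 0.54 ± 0.20 higher (edgeR adjusted p = 0.0376). After 12 cycles no gene was called by edgeR or DESeq2, where edgeR called 9.3% of all genes, and 1 of 7 had an unadjusted p under 0.05. After 6 cycles the same 2 genes were called, again a count close to the share of all genes, 29.8%. BomS2 then held 276, 205, 298 and 318 CPM in fluctuating males, against 147, 115, 144 and 156 CPM in constant males (0.91 ± 0.24, edgeR adjusted p = 0.00564). BomS3 held 411, 328, 429 and 446 CPM in fluctuating males, against 265, 170, 212 and 228 CPM in constant males (0.83 ± 0.28, edgeR adjusted p = 0.0244). For both genes every fluctuating library was above every constant one. BaraA1 (0.06) and BomS1 (0.44) were not called there. Without the male library rich in Yp1 transcript, constant low point at 6 cycles, replicate 2, BomS2 was still called (0.86, edgeR adjusted p = 0.0225) and BomS3 was not (0.76, edgeR adjusted p = 0.0798). In the mean over cycles without it, BomS2 stood at 0.69 (edgeR adjusted p = 0.00501) and BomS3 at 0.50 (edgeR adjusted p = 0.0738). The BomS3 call after 6 cycles was also lost without fluctuating replicate 4, and its call in the mean was lost in 6 of 32 omissions of a single library. The test of the difference between 12 and 6 cycles in this low-point effect called none of the 7 by edgeR or DESeq2, none had an unadjusted p under 0.05, and 4.75% of all genes were called by edgeR.

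Whether the effect of the fluctuating regime in males differed between the points was tested directly. Averaged over both cycle numbers, the effect at the high point was lower than at the low point for 5 of 7 genes, where 23% of all genes were called in either direction. The constant males with 15.7 to 42.2 CPM of Fbp1 enter this contrast, and their part was not tested. After 12 cycles the high-point and low-point effects were -0.60 and 0.36 for BaraA1, -0.17 and 0.22 for BomS1 and -0.10 and 0.53 for BomS2. They were 0.22 and 0.25 for BomS3 and 0.49 and 0.31 for BomBc1. In the same order they were -1.31 and 0.06, -1.88 and 0.44, -1.56 and 0.91, -1.13 and 0.83, and -2.60 and 0.54 after 6 cycles. For BomS2 the averaged effects were -0.83 at the high point and 0.72 at the low point, a difference of -1.56 ± 0.24 (edgeR adjusted p = 2.29e-05). The differences were -1.16 ± 0.24 for BaraA1 (edgeR adjusted p = 5.65e-04), -1.36 ± 0.37 for BomS1 (edgeR adjusted p = 0.00808), -0.99 ± 0.28 for BomS3 (edgeR adjusted p = 0.00930) and -1.48 ± 0.54 for BomBc1 (edgeR adjusted p = 0.0475). Drs (-0.87) and Mtk (-0.49) were not called. Without the male constant high-point library of 6 cycles, replicate 1, BomBc1 stood at -0.92 (edgeR adjusted p = 0.145) and the other 4 were called, and the BomBc1 call was lost in 21 of 32 omissions of a single library. It was also lost without a filter on low counts (edgeR adjusted p = 0.0521) and with edgeR's robust fit (adjusted p = 0.0642).

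In constant males, which stayed at 19 °C at both points, BaraA1 was 0.60 ± 0.17 higher at the high point than at the low point (edgeR adjusted p = 0.0221), the 1 gene of 7 called, where 9.64% of all genes were. BaraA1 held 327, 346, 230 and 320 CPM at the high point and 245, 235, 306 and 286 CPM at the low point after 12 cycles, and 530, 288, 497 and 438 CPM at the high point and 201, 175, 265 and 215 CPM at the low point after 6 cycles. The libraries of the points overlapped after 12 cycles and lay apart after 6, where those of the high point were the 4 with 15.7 to 42.2 CPM of Fbp1. Fbp1 (4.42) and Fbp2 (1.81) were also higher at the high point in constant males, and their part in the BaraA1 difference was not tested. Between 12 and 6 cycles, over both regimes and points, no gene of the 7 was called in males by edgeR or DESeq2, where 38.3% of all genes were called by edgeR, and 2 had an unadjusted p under 0.05. Without the male constant high-point library of 6 cycles, replicate 1, the time difference of BaraA1 was 0.55 (edgeR adjusted p = 0.0494), and Mtk (1.98), BomS3 (0.36) and BomS2 (0.33) were called higher after 12 cycles.

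Some fat body and hemocyte markers were also called in these contrasts. The summed CPM of the fat body list in males at the high point after 6 cycles was 4599 to 6449 in fluctuating and 2224 to 3461 in constant libraries. In the mean high-point contrast, where 31.9% of all genes were called, 3 of its 7 genes were higher and 3 lower. Among them the lipophorin gene apolpp (1.14) and the storage protein gene Lsp2 (2.23) were higher, and Fbp1 (-2.94) and Fbp2 (-2.39) were lower. Fbp1 and Fbp2 were lower after 6 cycles and not called after 12 cycles, as given above. The hemocyte sum was 711 to 1057 CPM in fluctuating and 925 to 996 CPM in constant males at that point. Of 10 hemocyte markers 1 was higher and 2 were lower in the mean high-point contrast, a count close to the 31.9% of all genes called. The GATA factor gene srp (-0.74) and PPO2 (-0.67) were lower, and Hml (0.42) was higher. At the low point the fat body sum was 2225 to 4342 CPM in fluctuating and 2383 to 4079 CPM in constant males over both cycle numbers. The accessory gland genes Acp36DE (0.59) and Acp62F (0.54) were higher there in the mean over cycles, and they were 0.55 and 0.49 higher without the male library rich in Yp1 transcript. The yolk protein genes Yp1 (-2.77), Yp2 (-3.23) and Yp3 (-2.48) were called lower with that library in the constant group. Without it Yp1 (0.73), Yp2 (0.53) and Yp3 (0.41) were not called and had the opposite sign. None of the fat body and hemocyte markers was at 0 in any male library but Fbp1. Their part in the results for the 7 genes was not tested.

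In females Mtk was the 1 gene of the 7 called in a comparison of regimes. It was higher in fluctuating than in constant females at the high point, by 3.13 ± 0.75 on the log2 scale (edgeR adjusted p = 0.00215), where 30.6% of 13471 genes were called. After 12 cycles Mtk held 2.30, 42.8, 6.32 and 0.655 CPM in fluctuating females, against 1.22, 0.759, 1.49 and 2.23 CPM in constant females (3.23 ± 1.07, edgeR adjusted p = 0.0460, with 12% of all genes called). After 6 cycles it held 63.8, 2.88, 3.81 and 1.75 CPM in fluctuating females, against 1.37, 2.26, 4.16 and 0.809 CPM in constant females (3.03 ± 1.05, edgeR adjusted p = 0.0292, with 30.5% of all genes called). Each time 1 fluctuating library was far above all others. Of the other 3, after 12 cycles 2 lay above the constant range and 1 below it, and after 6 cycles all 3 lay within it.

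The Mtk difference rested on those 2 libraries. Without the 6-cycle one, replicate 1, Mtk stood at 0.36 after 6 cycles (edgeR adjusted p = 0.805), and without the 12-cycle one, replicate 6, at 1.16 after 12 cycles (edgeR adjusted p = 0.512). The call after 6 cycles was also lost without constant replicate 1, 2 or 4, and the call after 12 cycles was lost in 18 of 32 omissions of a single library. The mean over cycles was 1.79 (edgeR adjusted p = 0.0277) without the first of them, 2.09 (edgeR adjusted p = 0.0176) without the other and 0.75 (edgeR adjusted p = 0.285) without both. With both left out, BaraA1 was called lower in fluctuating females at the high point (-0.81, edgeR adjusted p = 0.0171), against -0.49 (edgeR adjusted p = 0.190) with all libraries. BaraA1 held 48.9, 153, 40.0 and 38.3 CPM in fluctuating females after 12 cycles, against 134, 63.7, 47.2 and 158 CPM in constant females. The fluctuating library at 153 CPM was the same replicate 6 that was highest in Mtk. That library was also the highest of its group in BomS1 (128 CPM), BomBc1 (73.8 CPM) and Drs (429 CPM). Without the fluctuating high-point library of 6 cycles, replicate 3, BomS2 was called lower after 6 cycles (-0.99, edgeR adjusted p = 0.0413). The fat body marker sum at the high point was 2401 to 3662 CPM in fluctuating and 1510 to 2375 CPM in constant females over both cycle numbers, and the hemocyte sum was 667 to 873 CPM in fluctuating and 695 to 944 CPM in constant females. At the high point Fbp1 was at 0 CPM in the 4 fluctuating females of 6 cycles, against 16.7 to 27.5 CPM in the 4 constant ones. Their part in the Mtk and BaraA1 values was not tested.

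**Figure D3:**
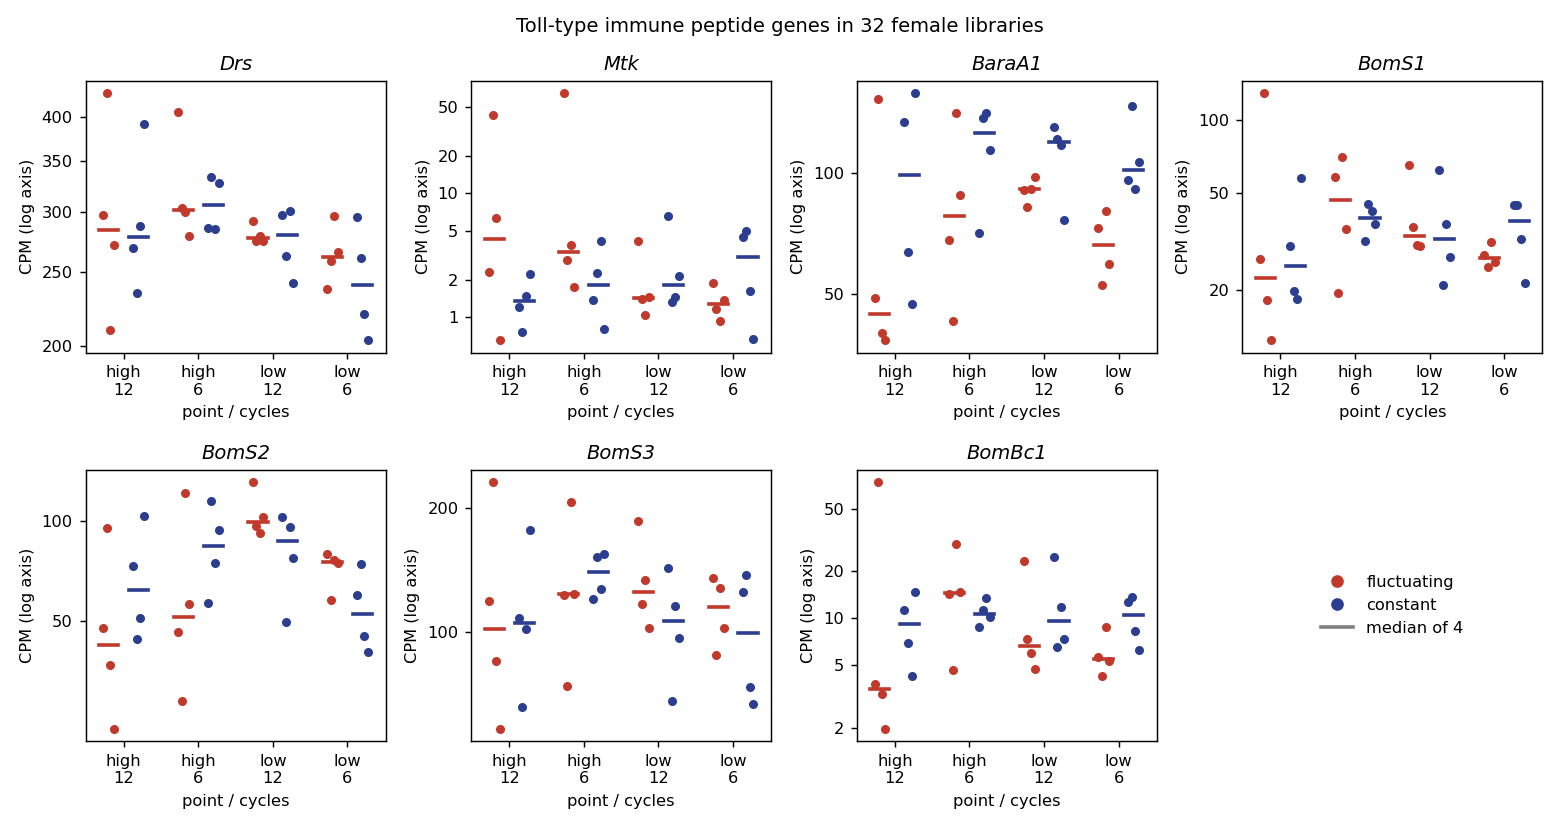
CPM of the 7 genes in the 32 female libraries on a log axis, 1 panel per gene, laid out as high point after 12 and 6 cycles, then low point after 12 and 6 cycles, with fluctuating left of constant; points are libraries and bars are medians of 4. In Mtk 1 fluctuating high-point library per cycle number stands apart, at 42.8 CPM after 12 cycles and 63.8 CPM after 6 cycles, and Drs stays between 204 and 429 CPM throughout.

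At the low point no gene of the 7 was called in females in the mean over cycles (22.9% of all genes called), after 12 cycles (13.4%) or after 6 cycles (26.4%), by edgeR or by DESeq2, and none had an unadjusted p under 0.05. For Drs the interval in the mean over cycles was narrow, from -0.17 to 0.28 on the log2 scale, and for BomBc1 it was wide, from -1.62 to 0.51. The effect at the high point minus that at the low point was called for Mtk alone, at 3.13 and -0.84, a difference of 3.97 ± 1.02 (edgeR adjusted p = 0.00607), where 20% of all genes were called. Without the pair of high libraries that difference was 1.61 (edgeR adjusted p = 0.105). Between 12 and 6 cycles none of the 7 was called by edgeR or DESeq2 and none had an unadjusted p under 0.05, where edgeR called 38.7% of all genes. Between the points in constant females none was called by either tool, where edgeR called 21.1% of all genes and 1 of 7, Drs, had an unadjusted p under 0.05 (0.24 higher at the high point). The effects of the regime were also compared between 12 and 6 cycles. At the high point (8.6% of all genes called) and at the low point (21%), none of the 7 was called by edgeR or DESeq2, and none had an unadjusted p under 0.05.

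The difference between the sexes in the high-point effect was tested over all 64 adult libraries in one fit, and the effects within each sex are from the fits by sex. Mtk (male effect -0.99, female effect 3.13, difference -4.08 ± 1.09, edgeR adjusted p = 0.00921) and BomS1 (-1.03, 0.40, difference -1.39 ± 0.47, edgeR adjusted p = 0.0419) were called, where 11.6% of all genes were. BomBc1 stood at -1.87 ± 0.69 (edgeR adjusted p = 0.0670), and DESeq2 called it (-1.86, adjusted p = 0.0384). For BaraA1, at -0.95 in males and -0.49 in females, the difference of -0.44 had an interval of -1.10 to 0.22. Without the male constant high-point library of 6 cycles, replicate 1, no gene of the 7 was called, with Mtk at -2.42 (edgeR adjusted p = 0.104) and BomS1 at -0.94 (edgeR adjusted p = 0.158). With all libraries of 1 replicate number left out, Mtk was not called without number 1 or 6, and BomS1 without number 1, 3, 4, 5, 6 or 7. None was called at the low point by edgeR or DESeq2, where edgeR called 7.53% of all genes, and 1 of 7 had an unadjusted p under 0.05 (BaraA1, 0.78, edgeR adjusted p = 0.163).

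**Figure D4:**
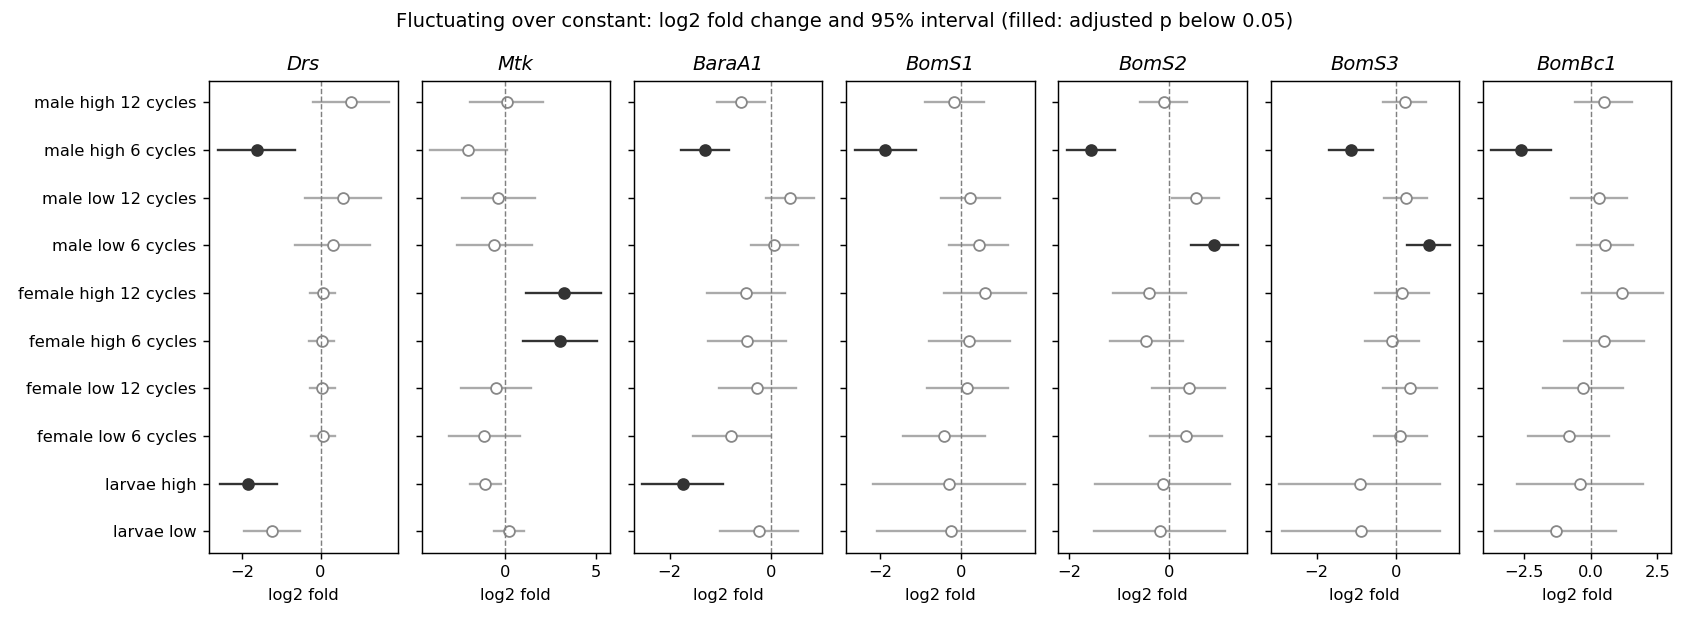
Log2 fold change of fluctuating over constant animals for the 7 genes in 10 contrasts, with 95% intervals, where filled points mark an edgeR adjusted p below 0.05. At the high point the filled male points lie below 0 and the filled female points are those of Mtk above 0, while at the low point BomS2 and BomS3 lie above 0 in males.

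Fluctuating larvae had less Drs and less BaraA1 transcript than constant larvae at the high point, 2 of 7 genes called, where 4.37% of 14634 genes were called. BaraA1 held 4.10, 2.42, 2.16 and 3.65 CPM in fluctuating larvae, against 7.53, 12.5, 12.4 and 7.62 CPM in constant larvae (-1.74 ± 0.40, edgeR adjusted p = 0.0301). Drs held 31.1, 53.4, 79.7 and 68.4 CPM in fluctuating larvae, against 172, 175, 328 and 115 CPM in constant larvae, for a log2 fold change of -1.84. For both genes every fluctuating library was below every constant one. Without the fluctuating high-point library of replicate 2 neither passed the threshold, BaraA1 at -1.65 (edgeR adjusted p = 0.0824) and Drs at -1.82 (edgeR adjusted p = 0.0606), with fold changes nearly as large, and neither passed it in a fit of the 8 high-point libraries alone. BaraA1 also missed it without any of 5 other high-point libraries, with fold changes between -1.93 and -1.59 over all single omissions. Mtk held 3.03, 1.43, 3.85 and 2.60 CPM in fluctuating larvae, against 3.77, 5.42, 10.7 and 2.58 CPM in constant larvae, and was not called (-1.12, edgeR adjusted p = 0.154).

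In larvae none of the 7 was called at the low point by edgeR, where 1.11% of all genes were, and 1 had an unadjusted p under 0.05. That gene was Drs, with 101, 223, 155 and 174 CPM in fluctuating larvae, against 199, 249, 385 and 598 CPM in constant larvae (-1.24, edgeR adjusted p = 0.139, DESeq2 adjusted p = 0.0237). BaraA1, with 15.3, 29.3, 21.8 and 13.8 CPM in fluctuating larvae and 6.80, 22.1, 28.8 and 30.6 CPM in constant larvae, stood at -0.24 (edgeR adjusted p = 0.814). Constant and fluctuating larvae overlapped in both genes. The effect at the high point minus that at the low point was called for none of the 7 by edgeR or DESeq2, where edgeR called 1.69% of all genes, and 1 had an unadjusted p under 0.05 (BaraA1, -1.50, edgeR adjusted p = 0.160).

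The larval Bomanins were split between libraries at the low point. BomS3 held 0.915, 22.3, 0.578 and 1.29 CPM in fluctuating larvae, against 1.12, 21.9, 14.8 and 6.88 CPM in constant larvae. BomBc1 held 0.0528, 4.02, 0.0251 and 0.115 CPM in fluctuating larvae, against 0.330, 3.63, 3.76 and 2.28 CPM in constant larvae. In both genes fluctuating replicate 2 stood with the 3 high constant libraries, and constant replicate 1 stood with the low ones. At the high point the Bomanins were low in all 8 libraries, up to 3.97 CPM for BomS3 and 0.458 CPM for BomBc1. Without fluctuating replicate 2, BomBc1 was called lower at the low point (-5.36, edgeR adjusted p = 0.0118), and BomS3 (-3.70, edgeR adjusted p = 0.0603), BomS1 (-2.77, edgeR adjusted p = 0.0962) and BomS2 (-1.80, edgeR adjusted p = 0.0786) were not. With it, BomBc1 stood at -1.30 (edgeR adjusted p = 0.662). For BomBc1 the effect at the high point minus that at the low point was also called without it (4.97, edgeR adjusted p = 0.0396). The fluctuating low-point libraries then left held 0.0251 to 0.115 CPM of BomBc1, where depth limits the level. The sizes of these BomBc1 fold changes without replicate 2 are therefore uncertain.

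In constant larvae the log2 differences of the high over the low point were -2.03 for BomS2 to -3.08 for BomBc1 among the Bomanins, and none of the 7 was called by edgeR, where 0.417% of all genes were. Of the 7 genes 5 had an unadjusted p under 0.05, and DESeq2 called 2, BomS2 (-2.01, adjusted p = 0.0325) and BomBc1 (-3.07, adjusted p = 0.0459). Of the 10 hemocyte markers 3 were lower in fluctuating larvae at the low point, He (-0.83), eater (-0.67) and NimC1 (-0.61), where 1.11% of all genes were called. The sums were 1740 to 2214 CPM in fluctuating and 1948 to 2439 CPM in constant larvae. None of 7 fat body markers was called there, with sums of 79196 to 82541 CPM in fluctuating and 82881 to 91377 CPM in constant larvae. None of these markers was at 0 in any larval library, and their part in the results was not tested.

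**Figure D5:**
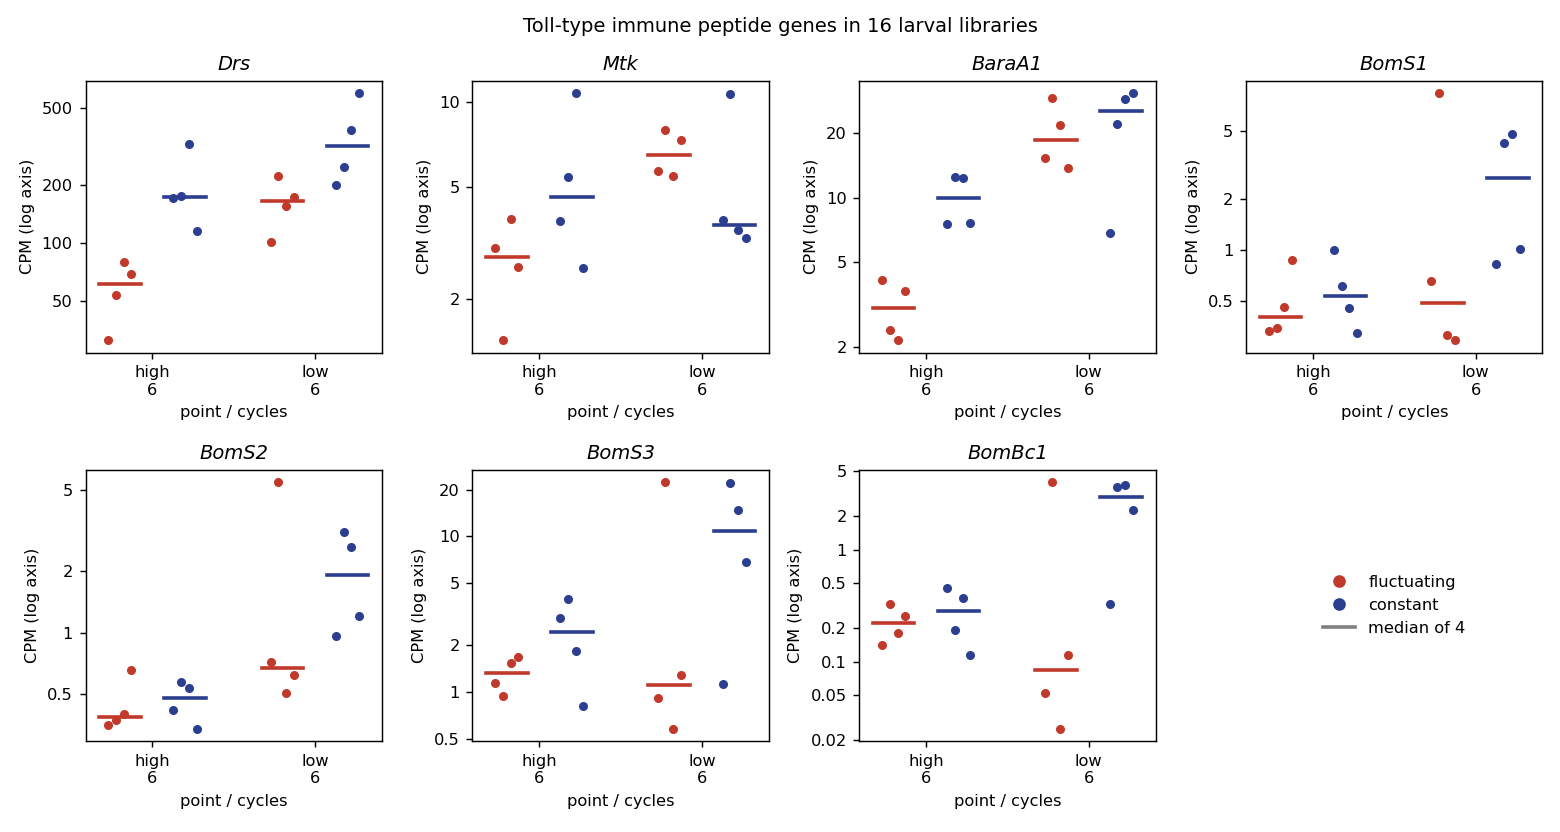
CPM of the 7 genes in the 16 larval libraries on a log axis, 1 panel per gene, with the high point left of the low point and fluctuating left of constant; points are libraries and bars are medians of 4. Drs and BaraA1 are lower in all 4 fluctuating libraries at the high point, and the Bomanins at the low point spread widely within the fluctuating group, from 0.578 to 22.3 CPM in BomS3.

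Related gene lists put these values beside the rest of the pathway. They were read as counts beside the median of each list and the share of all genes called in the same contrast, which in the mean over cycles was 31.9% in males and 30.6% in females at the high point and 30.5% in males at the low point, and in larvae 4.37% at the high point. A share near these is not a result about the list. Of 8 other Bomanin genes, 6 were lower in fluctuating males at the high point after 6 cycles, where 17.4% of all genes were called. The list median was -0.83, and BomT1 (-1.52), BomBc2 (-0.77), BomS5 (-1.60) and BomBc3 (-1.15) had the lowest adjusted p. Without the male constant high-point library of 6 cycles, replicate 1, 2 of the 8 were lower, BomT1 (-0.87) and BomBc2 (-0.68), with a median of -0.42. In the mean over cycles 3 of the 8 were lower in males at the high point, BomS4 (-0.54), BomT1 (-0.90) and BomBc2 (-0.34), and 1 was higher at the low point, BomBc3 (0.59). In females none of the 8 was called at the high point in the mean over cycles (median 0.03). In larvae 1 of 7 tested was called at the high point, BomS6, which was higher (2.29).

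Among 8 further secreted Toll effectors, the Daisho gene Dso1 (-0.83) and the serine protease homolog gene SPH93 (-5.74) were lower in fluctuating males at the high point after 6 cycles. The list median was -0.27, and 17.4% of all genes were called. Neither Dso1 nor SPH93 was called without the same male library. In females at the high point IM18 (4.52), SPH93 (3.60) and GNBP-like3 (1.27) were higher in the mean over cycles (list median 0.32). Without both female libraries that were high in Mtk, 0 of the 8 were called. In larvae at the high point IM33 was lower (-1.52), the 1 of 8 called, with a list median of -0.85.

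Of the Imd-type antimicrobial peptide genes, 8 of 11 tested were higher in fluctuating females at the high point in the mean over cycles, with a median of 2.52, among them AttA (3.55) and DptA (4.83), and 4 of 11 without both libraries that were high in Mtk, AttA (2.35), CecA1 (2.28), DptB (1.68) and Def (0.90). None of 12 was called in males at the high point or in larvae at either point. The sex difference in the high-point effect was lower in males for 8 of 12, where 11.6% of all genes were called. CecA1 (-2.74) and AttA (-4.43) had the lowest adjusted p. It was lower for 4 of 12 without the male constant high-point library of 6 cycles, replicate 1.

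Genes that act before and within the Toll cascade were counted in the same way. Of the recognition proteins and extracellular proteases, 5 of 15 were higher and 5 lower in fluctuating males at the high point in the mean over cycles, with a list median of 0.03. The protease homolog genes sphinx2 (1.20) and sphinx1 (0.97) were higher, and the serpin gene nec (-0.37) and the protease gene Hayan (-0.48) were lower. At the low point 5 of 15 were higher and 1 lower in fluctuating males (list median 0.05). Hayan (0.44), SPE (0.34), which encodes the protease that cleaves Spätzle, and spz (0.21), which encodes Spätzle itself, were among those higher. In females 4 of 13 were lower at the high point, psh (-0.59), modSP (-0.45), Hayan (-0.46) and nec (-0.31), with a list median of -0.07, a count close to the 30.6% of all genes called. In larvae 1 of 13 was lower, PGRP-SA (-0.48), a recognition protein gene (list median 0.09).

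Of 11 genes for the receptor and its intracellular partners, 4 were lower and 0 higher in fluctuating males at the high point in the mean over cycles, with a list median of -0.18, a count close to the 31.9% of all genes called. They were the adaptor gene Myd88 (-0.33), the inhibitor gene cact (-0.22), the kinase gene Gprk2 (-0.23) and the NF-κB gene Dif (-0.18). The number lower was 3 without the male constant high-point library of 6 cycles, replicate 1, and 7 without the male library rich in Yp1 transcript. In males at the low point Dif (0.29) was higher and cact (-0.32) and Myd88 (-0.17) were lower. In females at the high point 3 were higher and 5 lower (list median -0.03), with the kinase gene pll higher (0.32) and Tl, the receptor gene, lower (-0.22). In larvae at the high point pll was higher (0.40), the 1 of 11 called (list median 0.10). Of 4 tested Drosomycin-like genes, Drsl5 (-0.66) and Drsl4 (-0.54) were lower in fluctuating females at the high point, and none was called in males or larvae there. Of 15 genes for Imd pathway regulators and peptidoglycan recognition proteins, 1 was higher and 6 lower in fluctuating males at the high point (list median -0.18). The kinase gene Tak1 (-0.47) and the NF-κB gene Rel (-0.45) were lower and the adaptor gene Fadd (0.54) was higher. In females (list median 0.05) 1 was higher, Fadd (0.22), and 3 were lower, Rel (-0.31), Tak1 (-0.14) and the receptor gene PGRP-LC (-0.37). In larvae PGRP-SC2, which encodes a secreted amidase, was higher at the high point (0.70), the 1 of 15 called.

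The members varied together between libraries of one group to different degrees. Over deviations from group means, the Pearson correlation between pairs of Bomanins was 0.63 to 0.92 in males and 0.82 to 0.95 in females (32 libraries each) and 0.87 to 0.96 in larvae (16 libraries). Drs and Mtk had correlations of 0.71 in males, 0.61 in females and 0.17 in larvae, and Mtk and BaraA1 of 0.44 in males, 0.39 in females and 0.21 in larvae. Without the most extreme library of each fit, the lowest Bomanin pair was at 0.54 in males, 0.79 in females and 0.74 in larvae. Drs and Mtk then had 0.58 in males, 0.49 in females and 0.12 in larvae. The value for Mtk and BaraA1 was then 0.41 in males, 0.21 in females and 0.16 in larvae. These pairs share the library and its scaling. The tested genes outside the 7 with the highest Pearson correlation to their mean were Dso1 (0.85), Bbd (0.84), GNBP-like3 (0.84), BomBc3 (0.80) and Dro (0.77) in males. In females they were BomBc3 (0.91), CG4757 (0.89), Bbd (0.89), GNBP-like3 (0.88) and Dso2 (0.86). In larvae they were Cdk9 (0.93), Eato (0.87), mthl10 (0.85), Spn88Ea (0.84) and CG7806 (0.84). Without the most extreme library of each fit the named genes were at 0.70 to 0.77 in males and 0.83 to 0.91 in females. In larvae they were then at 0.70 to 0.88, with Cdk9 the highest. Elevation of many members at once was rare in single libraries. At least 4 of the 7 reached 2 or more times the median of the other 3 libraries of their group in 1 of 32 male, 2 of 32 female and 2 of 16 larval libraries, and none of the 7 did in 19 male, 21 female and 6 larval libraries.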

How the data were processed

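The values analysed are estimated counts per gene for 80 whole-animal libraries, deposited as whole numbers. Per the submitters' processing notes, the authors used FastQC, Trimmomatic, HISAT2 and StringTie with the BDGP6 build. The tool versions and the use of strand in counting were not given in the sources used here. Per the labels' protocols, mRNA was selected with oligo(dT) and copied from random hexamers. Of 183786 deposited values between 1 and 24, 36.8% were multiples of 4 (25% would be if multiples were evenly spread), so a fragment may carry more than 1 estimated count and an alternative divided all values by 4. The file pairs no symbols with its FlyBase identifiers, and 17559 of 17697 identifiers matched the annotation.

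Genes were tested with edgeR 4.0.16 in R 4.3.3 (quasi-likelihood test on TMM-scaled counts of genes kept by filterByExpr at 10 or more counts, Benjamini-Hochberg adjustment over all genes of a contrast, threshold 0.05) in 1 fit each for larvae, females, males, all adults and all libraries. CPM values in the text use library totals. The alternatives were DESeq2 1.42.0, other scalings, no filter, a robust fit, the replicate number as a block and the compared libraries alone. Each library was also left out in the fits by stage or sex, and each replicate number in the fits of all adults and of all libraries. The scripts were tested on simulated counts. The 7 genes and all lists were chosen with earlier results of these data known. Contrasts of the effect between cycle numbers and between sexes were added after the values were seen. Of other lists, up to 4 called genes per contrast with the lowest adjusted p were eligible to be named, and the likeness ranking named 5 genes per fit. Yp1, Fbp1 and the libraries left out by name were chosen after their values were seen. No sequence is shown.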

Additional observations from a re-analysis of the deposited data

Results flagged for a closer look

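In groups of 4, the highest or lowest library was picked out when its gap to the nearest of the others took up nearly the whole range of the group, past Dixon's 95% limit. Chance passes that limit in about 1 in 20 groups of normally distributed values. It was applied here to CPM values, and the combinations share libraries and correlated genes. The number picked out therefore cannot be set against 1 in 20. This held for 22 of 140 combinations of gene and group, 21 with a high library and 1 with a low one, spread over 12 libraries. In males the constant high-point library of 6 cycles, replicate 1, was picked out in Mtk (98.1 CPM), BomS1 (587 CPM) and BomS3 (1210 CPM). Other male libraries were the fluctuating high point at 12 cycles, replicate 5, in Mtk (77.1 CPM), the fluctuating low point at 12 cycles, replicate 8, in BomBc1 (92.1 CPM), the fluctuating low point at 6 cycles, replicate 2, which was low in BaraA1 (161 CPM), and the constant low point at 6 cycles, replicate 2, in Drs (163 CPM).

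In females the fluctuating high-point library of 12 cycles, replicate 6, was picked out in Mtk (42.8 CPM), BaraA1 (153 CPM), BomS1 (128 CPM) and BomBc1 (73.8 CPM). The fluctuating high-point library of 6 cycles, replicate 1, was picked out in Mtk (63.8 CPM). The fluctuating low-point library of 12 cycles, replicate 5, was picked out in Mtk (4.16 CPM), BomS1 (65.2 CPM) and BomBc1 (23.1 CPM), and the constant one of the same point, cycles and number in Mtk (6.57 CPM). In larvae the fluctuating low-point library, replicate 2, was picked out in BomS1 (8.27 CPM), BomS2 (5.49 CPM), BomS3 (22.3 CPM) and BomBc1 (4.02 CPM), the constant low-point library, replicate 2, in Mtk (10.7 CPM), and the fluctuating high-point library, replicate 4, in BomS2 (0.653 CPM).

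A tested difference between the effects at the high and low points passed the threshold for Mtk in females (3.97) and, in males, for BaraA1 (-1.16), BomS1 (-1.36), BomS2 (-1.56), BomS3 (-0.99) and BomBc1 (-1.48). A tested difference between males and females in the high-point effect passed it for Mtk (-4.08) and BomS1 (-1.39). None of these patterns was examined for a cause.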

How the results depend on the processing

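Over 30 contrasts (24 planned, 6 added) and 1589 values of the 7 genes under other settings, no called value changed direction, and 16 uncalled values did, 9 of them under the block and 4 with library totals only. The number of the 7 genes called was the same as reported in 30 of 30 contrasts with RLE size factors, with library totals and with values divided by 4, in 28 of 30 without a filter and with the robust fit, in 26 of 30 with DESeq2 and in 20 of 30 with the replicate block.

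Without a filter and with the robust fit, 0 genes were called in females at the high point after 12 cycles and 4 in the male difference between points, where BomBc1 was lost. With DESeq2, 1 was called in larvae at the low point, 2 between times in constant larvae, 1 in the male difference between cycle numbers at the high point and 3 in the sex difference at the high point, with BomBc1 added. In fits of the compared libraries alone, 0 were called in larvae at the high point and in females at the high point after 12 or 6 cycles, 1 (BaraA1) in females at the low point after 6 cycles and in the mean over cycles, 2 between times in constant larvae, 3 in males at the high point after 6 cycles and 3 in their mean over cycles, where BomBc1 was lost (edgeR adjusted p = 0.0622). Leaving out both female libraries highest in Mtk, a setting chosen after seeing the data, left 0 in females at the high point after 6 cycles and in their difference between points. At the high point after 12 cycles and in the mean over cycles Mtk was also lost, and BaraA1 was called lower in its place. BaraA1 then stood at -1.23 (edgeR adjusted p = 0.0326) after 12 cycles and at -0.81 (edgeR adjusted p = 0.0171) in the mean.

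Deviations of same-numbered libraries correlated over 0.1 in 8 of 24 pairs in larvae and in 0 of 48 pairs each in females and males. They did so in 3 of 128 pairs of a male with a female library. The highest correlation in larvae was 0.54, and the median was -0.01 in same-numbered and 0.003 in other pairs. Pairs with other numbers were not counted over 0.1, so whether replicate numbers pair the larval libraries was not settled. With the replicate number as a block, 0 genes were called in females at the high point after 12 or 6 cycles, in their difference between points and in the sex difference at the high point. The block gave 1 gene each for males at the high point after 12 cycles (BaraA1), between male cycle numbers (BomS2) and for the male difference between cycle numbers at the high point (BomS2). It left 5 in males at the high point after 6 cycles, without Drs (-1.35, edgeR adjusted p = 0.0672), and without BomBc1 3 in the mean over cycles there (-0.89, edgeR adjusted p = 0.0750) and 4 in the male difference between points (-1.15, edgeR adjusted p = 0.134).

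Leaving out libraries in 88 settings gave these ranges of called genes. In the larval, female and male fits 1 library was left out at a time. In the fits of all adults and of all libraries, all libraries of 1 replicate number were left out at a time, or a single male library named above. In males it was 3 to 5 at the high point, 4 to 6 there after 6 cycles and 0 to 1 after 12, 1 to 2 at the low point and there after 6 cycles, 4 to 5 for the difference between points, 0 to 3 between cycle numbers and 1 to 3 between times in constant males. In females it was 1 to 3 at the high point, 0 to 2 there after 6 cycles and 0 to 1 after 12, and 1 to 2 for the difference between points. In larvae it was 0 to 2 at the high point and 0 to 1 at the low point and for the difference between points. It was 0 to 3 for the sex difference at the high point, 5 to 6 for larvae against adults and 7 for males against females, and in the other contrasts it stayed at 0. The BomBc1 call for the male difference between points was lost in 21 of 32 omissions of a single library. The Mtk call in females at the high point after 12 cycles was lost in 18 of 32. The cause of these changes was not tested, except that fits of the compared libraries alone and with libraries left out hold fewer samples.

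Among all genes, the number called in larvae moved most. At the high point it was 639, against 1603 with DESeq2, 1484 with library totals, 1037 with the block and 22 in the 8 libraries alone. At the low point it was 162, against 524 with DESeq2 and 253 in the 8 libraries alone, and for the difference between points 247, against 1048 with DESeq2 and 399 with library totals. Between times in constant larvae it was 61, against 1407 with DESeq2, 753 alone, 682 with library totals, 766 with the block, 1 with the robust fit and 0 without a filter. In the compared libraries alone it was 722 in place of 1612 in females at the high point after 12 cycles, 595 in place of 1802 at the low point after 12 cycles, 2253 in place of 4723 in males at the low point after 6 cycles and 667 in place of 1527 between times in constant males. Without both female libraries it was 1073 in place of 1612 at the high point after 12 cycles and 482 in place of 1158 for the difference between cycle numbers there. DESeq2 called 16 in place of 9 genes for the male difference between cycle numbers at the high point. With library totals the calls in larvae at the high point split into 956 higher and 528 lower, against 308 and 331 as reported, in larvae against adults into 5833 and 7634, against 7616 and 5845, and in males at the low point after 6 cycles into 2213 and 2314, against 1822 and 2901. The level of low genes is limited by depth, as for larval Bomanins below 1 CPM.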
